A study of Rattus norvegicus with 35 samples.

Results

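The genes described are those of the rat major histocompatibility complex, called RT1, as named on a whole rat genome expression array: every probe whose gene name starts with RT1-, plus Cd74, Ciita, B2m, Tap1, Tap2 and Tapbp, which serve the same 2 presentation pathways. They are 36 gene names with 53 probes, of 35581 gene names and 41012 probes on the array. By the array description, or by the letters after RT1- where that gives no class, 24 names (33 probes) are class I and 6 names (11 probes) class II. A further 4 names (7 probes) are class I accessory (B2m, Tap1, Tap2 and Tapbp) and 2 names (2 probes) class II accessory (Cd74 and Ciita). Transcripts were measured in the left abdominal mammary glands of 35 Sprague-Dawley females at postnatal day 21, taken from different litters, on 1-colour arrays. Dams received bisphenol A (BPA, a plastics monomer) by gavage from gestational day 10 to 21, with or without a diet containing genistein, a soy isoflavone, or indole-3-carbinol (I3C), a compound of cruciferous vegetables. The 7 groups hold 5 animals each. The control dams, labelled a negative control, received none of the 3 compounds. BPA25 and BPA250 received 25 and 250 µg/kg/day. BPA25+genistein and BPA250+genistein received these doses with 250 mg genistein per kg of chow, about 5.5 mg/kg/day. BPA25+I3C and BPA250+I3C received them with 2000 mg I3C per kg of chow, about 45 mg/kg/day. None of the 7 groups had a diet compound without BPA, so each diet is compared with the same BPA dose alone.

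MHC class I molecules are a heavy chain bound to beta-2-microglobulin (B2m), and they carry peptides from the cytosol that the transporter Tap1/Tap2 moves into the endoplasmic reticulum, where tapasin (Tapbp) helps to load them; nearly all nucleated cells make them. MHC class II molecules are pairs of an alpha and a beta chain, RT1-Ba with RT1-Bb and RT1-Da with RT1-Db1 in the rat, which assemble with the invariant chain Cd74 and are made mainly by B cells, dendritic cells and macrophages under the control of the transactivator Ciita. In a mammary gland such cells lie in the epithelium and stroma, and the abdominal fat pad of the rat also surrounds a lymph node.

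Heavy chain genes of this complex are near copies of each other, so the probe sequences are shown first for the names whose readings are set side by side below; capitals mark the longest run of bases that a probe shares with the first other probe of its set, and all are 60 bases, 5′ to 3′, as the array files list them. The 2 probes of RT1-A2 overlap, the last 19 bases of one being the first 19 of the other. The 2 probes of RT1-Ba share a run of 17 bases. In the ungapped alignment with the most matches, which does not line up that run, 35 of 54 bases are identical. Those of RT1-A3 and RT1-CE10 share 52 of 57 bases, and those of RT1-CE1 and RT1-CE12 also share 52 of 57. RT1-M6-2 shares 48 of 59 bases with RT1-CE1 and 46 of 58 with RT1-CE12, in which its own longest run is 14 bases.
RT1-A2 A_44_P184753: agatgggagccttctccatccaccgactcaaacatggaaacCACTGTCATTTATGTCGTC
RT1-A2 A_44_P296155: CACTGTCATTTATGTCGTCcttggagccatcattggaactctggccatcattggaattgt
RT1-Ba A_44_P194167: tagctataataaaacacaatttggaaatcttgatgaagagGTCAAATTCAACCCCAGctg
RT1-Ba A_44_P128248: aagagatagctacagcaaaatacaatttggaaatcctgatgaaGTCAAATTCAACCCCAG
RT1-A3 A_44_P501234: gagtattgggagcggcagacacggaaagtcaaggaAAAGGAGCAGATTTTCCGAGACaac
RT1-CE10 A_44_P389019: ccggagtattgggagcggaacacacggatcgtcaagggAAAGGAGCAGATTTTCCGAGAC
RT1-CE1 A_44_P513029: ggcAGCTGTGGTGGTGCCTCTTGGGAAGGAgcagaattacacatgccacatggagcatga
RT1-CE12 A_44_P313661: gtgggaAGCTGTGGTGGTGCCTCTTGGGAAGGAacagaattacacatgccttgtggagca
RT1-M6-2 A_44_P309052: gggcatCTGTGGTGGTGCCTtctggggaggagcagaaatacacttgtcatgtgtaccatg

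In the array's own annotation, on the rn3 assembly, 37 of the 44 RT1 probes lie on chromosome 20 between 1412672 and 5059470, 3 on unplaced pieces of that chromosome, and 4 have no position. The class II probes with a position (10 of 11) lie between 4638931 and 4891416. Tap1, Tap2 and Tapbp lie in the same complex, and B2m, Ciita and Cd74 lie on chromosomes 3, 10 and 18. Promoters of the class II pairs and of RT1-A2 are shown because the class II genes and Cd74 varied together between arrays, as given below. Each is the 160 bases from 180 to 21 before the RefSeq start in GRCr8, on the gene's own strand, and capitals mark the letters searched on both strands: CTGATTGG, the Y box, which reads CCAATCAG on the other strand; a core of the X box of 12 letters, the first capitals of RT1-Da and RT1-Db1; and a palindromic kappa B-like site of 11 letters, the first capitals of RT1-A2.
RT1-Ba, chr20:4576877-4577036, plus strand: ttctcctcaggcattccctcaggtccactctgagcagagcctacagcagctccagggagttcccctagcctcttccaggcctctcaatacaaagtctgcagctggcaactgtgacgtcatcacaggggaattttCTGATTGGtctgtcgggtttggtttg
RT1-Bb, chr20:4604139-4604298, minus strand: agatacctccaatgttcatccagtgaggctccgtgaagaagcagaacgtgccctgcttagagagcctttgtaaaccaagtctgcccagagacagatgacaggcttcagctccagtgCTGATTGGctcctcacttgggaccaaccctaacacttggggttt
RT1-Da, chr20:4515235-4515394, plus strand: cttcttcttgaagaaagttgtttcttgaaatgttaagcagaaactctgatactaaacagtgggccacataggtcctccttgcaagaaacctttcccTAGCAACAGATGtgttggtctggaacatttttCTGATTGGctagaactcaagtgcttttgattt
RT1-Db1, chr20:4560183-4560342, minus strand: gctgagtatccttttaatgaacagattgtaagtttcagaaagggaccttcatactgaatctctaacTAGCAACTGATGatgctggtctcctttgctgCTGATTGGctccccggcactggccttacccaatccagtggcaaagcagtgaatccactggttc
RT1-A2, chr20:4872691-4872850, plus strand: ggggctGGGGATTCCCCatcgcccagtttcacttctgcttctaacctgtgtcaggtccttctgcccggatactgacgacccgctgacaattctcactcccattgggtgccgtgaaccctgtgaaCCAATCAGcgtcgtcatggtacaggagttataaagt
The window searched ran from 250 bases before to 50 after each start, and RefSeq gave one for 30 of 33 member symbols. The Y box letters were in 5 of 6 class II promoters, all on the coding strand. They were in 8 of 19 class I promoters, all on the other strand, and in 3.5% of all 33469 rat promoters of the same length. The X box core was in RT1-Da, RT1-Db1 and RT1-DOb and in 0.0687% of all promoters. The kappa B-like site was in 5 class I promoters (RT1-A2, RT1-A3, RT1-CE10, RT1-CE16 and RT1-CE4) and in 0.0627% of all. None of these letters were in the 4 class I accessory promoters or the 1 class II accessory promoter searched. No match overlapped another. These are matches of letters in a window and say nothing of binding.

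A level is the log2 of a probe's processed signal minus the log2 of that array's 75th percentile, so 0 is the 75th percentile of all probes on the array; levels of different probes are not set against each other. The arrays lay on 10 slides, and the 75th percentile ran from 30.4 to 876 intensity units. The 4 arrays of slide 3 (replicate 2 of control, BPA25, BPA250 and BPA25+genistein) stood apart, with 93.4 to 96.4% of probes well above background against 31.9 to 72.2% elsewhere. Of the 14 mammary epithelial markers listed, 11 passed the filter and Cldn3 was well above background on all 35 arrays. Krt18, Krt19 and Csn2 were so on 34 arrays, Lalba on 33, Krt5 on 32, Krt14 on 31 and Epcam and Cdh1 on 30. Krt8 was so on 24, and Cldn4, Csn3, Krt17 and Wap on 17, 14, 11 and 1. All 9 adipocyte markers on the array were so on all 35. Adipocyte transcripts were thus well measured on every array and most epithelial markers on most arrays. On slide 3 most member probes read low: that array was the lowest of its group for 36 of 41 tested members in control, 32 of 40 in BPA25, 35 of 41 in BPA250 and 25 of 41 in BPA25+genistein. Of the 7 class II probes this held for 7, 4, 6 and 0 in these groups, and in BPA25+genistein it did not hold for Cd74. These counts are not given over all probes, so they are not read as a trait of the members. Fits without slide 3 are among the settings given at the end.

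Class I transcripts were measured well in every group, and group means of a probe lay close together. Of 33 class I probes, 26 passed the filter (well above background on at least 4 of 5 arrays of a group) and 21 were well above background on all 35 arrays. Between the lowest and the highest of the 7 group means, the 26 probes spanned 0.31 to 1.32 on the log2 scale, with a median of 0.49, against SDs within groups of 0.44 to 1.57. Both upper ends were those of RT1-A3, a dim probe that read high on the 4 arrays of slide 3; the other 25 probes spanned at most 0.95, with SDs of at most 0.78. BPA250 held the lowest group mean for 16 of the 26, and the highest lay in BPA250+genistein for 8, BPA25+I3C for 7 and BPA25 for 6. For RT1-A2, a classical class I heavy chain, the probe of higher signal gave these values. RT1-A2 read 3.85, 2.17, 4.25, 3.63 and 4.26 in the 5 control arrays, 4.12, 2.32, 4.94, 4.12 and 4.05 in BPA25 and 3.58, 2.05, 3.75, 4.19 and 4.09 in BPA250. With genistein it read 4.05, 3.11, 4.09, 4.58 and 4.58 at BPA25 and 4.29, 2.83, 3.50, 4.91 and 4.34 at BPA250. With I3C it read 4.12, 2.80, 4.47, 3.64 and 4.36 at BPA25 and 4.18, 3.39, 3.86, 3.66 and 3.20 at BPA250. Replicate 2 was the lowest array of 6 groups, in 4 of them on slide 3 and in 2 on slide 4, and the groups overlapped in all 7 comparisons.

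The other class I names above background on all 35 arrays are given by their lowest, median and highest array level and by their lowest and highest group mean (± SD, n = 5). RT1-Aw2 had 1.65, 3.08 and 4.45, and group means from 3.02 ± 0.94 in BPA250 to 3.41 ± 0.48 in BPA250+genistein. The RT1-CE names belong to the class I genes of the RT1-C/E region. RT1-CE1 had 2.11, 4.08 and 4.81, with group means from 3.69 ± 0.90 in BPA250 to 4.14 ± 0.72 in BPA25. RT1-CE2 gave 2.27, 4.43 and 5.37, with group means from 3.97 ± 0.99 in BPA250 to 4.36 ± 0.58 in BPA25+I3C. RT1-CE3 had 0.32, 2.12 and 3.11, with group means from 1.77 ± 0.81 in BPA250 to 2.25 ± 0.41 in BPA25+I3C. All 3 had their lowest group mean in BPA250. RT1-CE4 had 1.55, 3.67 and 4.59, with group means from 3.20 ± 0.93 in BPA250 to 3.72 ± 0.83 in BPA25. RT1-CE5 gave 0.52, 2.37 and 3.18, with group means from 2.00 ± 0.83 in BPA250 to 2.43 ± 0.51 in BPA250+genistein. RT1-CE7 had -0.56, 1.12 and 1.70, with group means from 0.70 ± 0.63 in BPA250 to 1.19 ± 0.58 in BPA25+genistein. These 3 were again lowest in BPA250. RT1-CE12 had 2.58, 3.89 and 4.78, with group means from 3.60 ± 0.56 in BPA250 to 4.10 ± 0.64 in BPA25. RT1-CE16 gave 2.15, 4.24 and 5.18, with group means from 3.77 ± 0.98 in BPA250 to 4.22 ± 0.58 in BPA25+I3C. RT1-Cl had 2.23, 4.02 and 4.86, with group means from 3.77 ± 0.80 in control to 4.08 ± 0.45 in BPA250+genistein. RT1-Cl was lowest in control, and its group means differed least of the 26 probes. RT1-M3, which presents peptides that start with formylated methionine, had -0.035, 0.99 and 2.04, with group means from 0.67 ± 0.50 in BPA25 to 1.27 ± 0.66 in BPA250+genistein. RT1-M6-2 had 1.96, 3.97 and 4.70, with group means from 3.53 ± 0.91 in BPA250 to 4.02 ± 0.75 in BPA25. RT1-S3 had 0.56, 2.78 and 3.63, with group means from 2.32 ± 1.01 in BPA250 to 2.74 ± 0.66 in BPA250+genistein. The name RT1-Ke4 is an older symbol of Slc39a7, a zinc transporter gene within the complex and no heavy chain. It is counted with class I by its array description. Without it the class I medians of the 7 comparisons were -0.32 to 0.33, as against -0.34 to 0.33, and each kept its sign. It had -0.071, 1.66 and 2.61, with group means from 0.98 ± 0.70 in BPA250+genistein to 1.92 ± 0.73 in BPA25. In none of these names did a group mean lie farther from its neighbour in the order of means than the larger of their SDs.

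A further 4 class I names passed on fewer arrays: RT1-T24-1 was well above background on 33 arrays, RT1-N3 on 32, RT1-N1 on 26 and RT1-A3 on 22. RT1-A3 is a class I heavy chain name whose probe went the other way on slide 3. It read 1.85, 1.75, 2.05 and 1.84 on the 4 arrays of that slide, and between -3.16 and 0.99 on the other 31. The values on slide 3 were above all others. RT1-CE10, whose probe shares 52 of 57 bases with it, was well above background on 13 arrays, did not pass the filter, and read 1.33, 1.30, 1.73 and 1.25 on slide 3. The other class I probes that did not pass were RT1-CE6 (10 arrays above background), RT1-M2 (9), RT1-M10-1 (5), RT1-T24-2 (1), and second probes of RT1-CE5 (19) and RT1-M6-2 (11), whose first probes were above background on all 35.

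Of the class I accessory genes all 7 probes passed, and 6 were well above background on all 35 arrays. B2m read 7.94, 5.72, 8.23, 8.48 and 8.11 in the 5 control arrays, 7.77, 6.60, 8.30, 8.07 and 8.00 in BPA25 and 8.04, 5.76, 7.42, 8.24 and 8.13 in BPA250. The genistein groups read 8.40, 6.06, 7.66, 8.95 and 8.51 at BPA25 and 8.04, 6.96, 7.76, 8.92 and 8.70 at BPA250. The I3C groups read 8.00, 7.37, 8.71, 7.79 and 8.33 at BPA25 and 8.25, 8.01, 7.20, 8.28 and 8.19 at BPA250. The lowest values were those of slide 3 in the 4 groups it holds, and the arrays outside slide 3 lay between 6.96 and 8.95. All 4 B2m probes gave group means that spanned 0.50 to 0.73, lowest in BPA250. Tap1 read 0.22, -1.47, -1.26, -0.46 and -0.39 in the 5 control arrays, 0.44, -1.10, 0.50, -0.19 and -0.0051 in BPA25 and 0.51, -1.21, 1.09, -0.43 and 0.25 in BPA250. BPA25+genistein arrays read -0.33, -0.80, 1.94, 0.72 and -0.54, and BPA250+genistein arrays -0.32, -1.51, 1.78, -0.24 and -0.48. BPA25+I3C arrays read -0.24, -0.58, -0.90, -0.14 and -0.19, and BPA250+I3C arrays -1.11, -1.02, -0.59, -0.75 and -1.40. Tap1 was the accessory gene with the widest span of group means, from -0.97 in BPA250+I3C to 0.20 in BPA25+genistein, and it was well above background on 33 arrays. Its 3 highest arrays were replicate 3 of BPA250, of BPA25+genistein and of BPA250+genistein, which are the 3 arrays of slide 5. Tap2 read 0.66, -1.08, 1.58, 1.61 and 1.06 in the 5 control arrays, 1.58, -0.034, 1.60, 1.30 and 1.49 in BPA25 and -0.27, -0.60, 0.55, 1.31 and 1.33 in BPA250. With genistein it read -0.58, -0.044, -0.059, 1.14 and 0.22 at BPA25 and 0.30, 0.81, 0.11, 2.05 and 1.42 at BPA250. With I3C it read 0.68, 0.058, 1.75, 1.34 and 1.47 at BPA25 and 1.69, 0.84, 0.63, 0.87 and 1.80 at BPA250. Tap2, the partner of Tap1, had its lowest group mean in BPA25+genistein (0.14 ± 0.63) and its highest in BPA25 (1.19 ± 0.69). Tapbp had -1.42, 0.52 and 1.24 as its lowest, median and highest level, with group means from 0.17 ± 0.86 in BPA250 to 0.70 ± 0.51 in BPA250+genistein.

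Class II transcripts and Cd74 differed far more between animals of a group than between groups. Of 11 class II probes 7 passed, and 3 of them, 1 of RT1-Bb and 2 of RT1-Db1, were above background on all 35 arrays. Both RT1-Da probes were so on 34 arrays, RT1-Ba on 31 and the second RT1-Bb probe on 26. Their readings on the remaining arrays are bounds. Cd74 read 3.62, 1.40, 4.69, 4.08 and 3.86 in the 5 control arrays, 3.19, 2.20, 5.24, 3.41 and 4.62 in BPA25 and 5.42, 1.17, 3.86, 3.35 and 3.69 in BPA250. The genistein groups read 2.23, 3.89, 3.05, 3.76 and 6.25 at BPA25 and 5.06, 3.22, 3.33, 5.14 and 6.02 at BPA250. The I3C groups read 5.64, 1.52, 4.65, 3.00 and 4.86 at BPA25 and 4.94, 2.81, 5.12, 4.99 and 3.48 at BPA250. Cd74 varied least in BPA250+I3C and most in BPA25+I3C by SD (1.05 and 1.66), and every group held both high and low arrays. In bulk tissue, fewer cells that make class II and less RNA per such cell cannot be told apart. RT1-Db1 read 1.99, 0.76, 2.85, 2.10 and 1.89 in the 5 control arrays, 1.50, 1.16, 3.44, 1.49 and 2.93 in BPA25 and 3.41, 0.62, 2.26, 1.70 and 1.48 in BPA250. BPA25+genistein arrays read 0.77, 2.50, 1.63, 2.22 and 4.04, and BPA250+genistein arrays 2.90, 1.32, 2.03, 3.07 and 4.26. BPA25+I3C arrays read 3.82, 0.38, 2.56, 1.11 and 2.86, and BPA250+I3C arrays 3.14, 1.09, 3.26, 2.64 and 1.28. RT1-Db1 is the beta chain of the RT1.D molecule, and its high and low arrays were largely those of Cd74, as the correlations below give. RT1-Ba read -1.76, -2.50, 0.36, -1.11 and -1.08 in the 5 control arrays, -1.81, -1.91, 0.55, -1.92 and 0.39 in BPA25 and 0.29, -2.86, -1.07, -1.95 and -0.13 in BPA250. With genistein it read -4.09, -0.087, -1.90, -1.36 and 1.72 at BPA25 and 0.13, -2.07, -2.26, 0.58 and 1.41 at BPA250. With I3C it read 1.86, -3.41, -0.19, -2.26 and 0.29 at BPA25 and 0.20, -3.10, 1.10, -0.091 and -2.19 at BPA250. RT1-Ba, the alpha chain of RT1.B, had the widest range of the class, 5.96 log2 units, and both ends of it lay on slide 2: -4.09 in BPA25+genistein replicate 1 and 1.86 in BPA25+I3C replicate 1. RT1-Ba was not well above background at -4.09, nor at -3.41, -3.10 and -1.36, so the lower end of its range is a bound. RT1-Da, the alpha chain that pairs with RT1-Db1, had -0.67, 1.92 and 4.10 as lowest, median and highest level, with group means from 1.64 ± 1.66 in BPA25+genistein to 2.49 ± 0.95 in BPA250+I3C. RT1-Bb had 0.36, 2.34 and 4.54, with group means from 1.96 ± 1.07 in control to 3.03 ± 1.00 in BPA250+genistein. Cd74 was also highest in BPA250+genistein (4.55 ± 1.23) and lowest in BPA250 (3.50 ± 1.53), and BPA250+genistein held the highest group mean of 5 of the 7 class II probes. The order of the 7 means of Cd74 was BPA250, control, BPA25, BPA25+genistein, BPA25+I3C, BPA250+I3C and BPA250+genistein, and no neighbours in it differed beyond their SDs of 1.05 to 1.66.

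**Figure D1:**
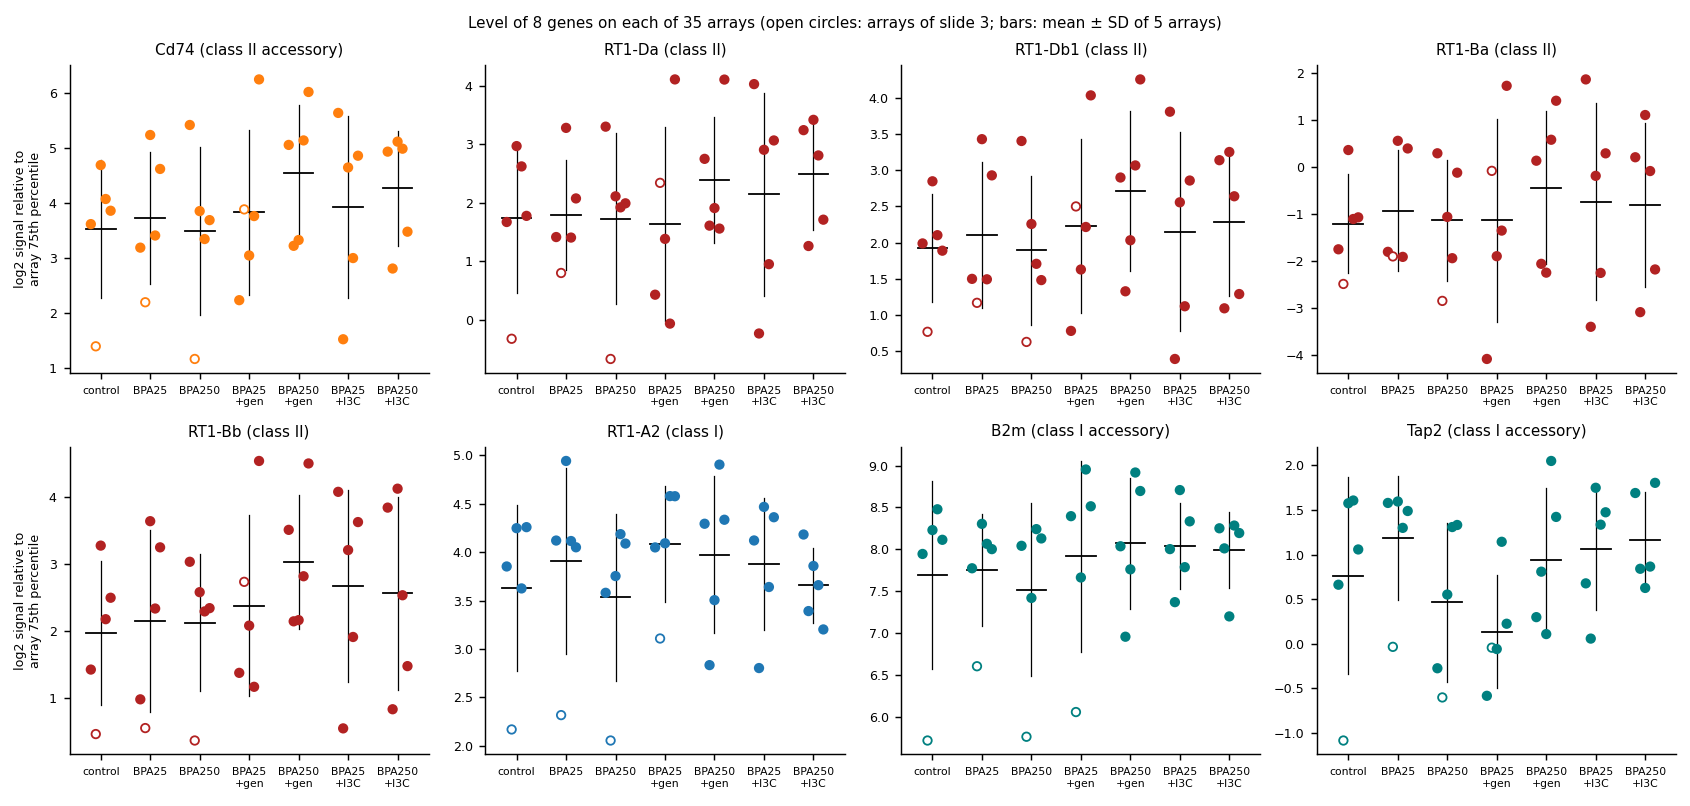
Level of 8 genes on each of 35 arrays (log2 signal relative to the 75th percentile of the array, y axis) in the 7 groups (x axis); points are arrays, open circles are arrays of slide 3, and bars are mean ± SD of 5 arrays. Class II genes and Cd74 spread over 3.88 to 5.96 log2 units across the 35 arrays, and the groups overlap in every panel. The 5.96 is that of RT1-Ba, whose lowest reading was not well above background and is a bound.

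Members of the DO pair and Ciita were near background. RT1-DOa and RT1-DOb, whose product limits peptide exchange on class II molecules, were well above background on 7 and 13 arrays, Ciita on 12, and a further probe of RT1-Db1 on 10; none passed the filter. The second RT1-Ba probe was well above background on 4 arrays, all on slide 3. The first RT1-Ba probe was above background on those 4 and on 27 of the 31 others. For these probes a level below background is a bound, and no comparison was made.

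The spread between animals separated class II from class I. Pooled over the 7 groups and with slide as a further term in the fit, the SD between arrays was 1.07 to 1.68 for the 7 class II probes, at percentiles 97.5 to 99.5 of the 18996 probes tested. It was 1.20 for Cd74, at percentile 98.3. The 26 class I probes had 0.24 to 0.77, at percentiles 13.5 to 92.9, and the 7 accessory probes 0.25 to 0.51. The median of all probes was 0.37. Without slide in the fit the medians were 1.29 for class II, 0.67 for class I, 0.78 for the class I accessory probes and 0.65 for all probes, so that slide took up much of the spread of class I (0.67 to 0.39) and of the accessory probes (0.78 to 0.26) and little of that of class II (1.29 to 1.27). The 3 most variable members with slide fitted were RT1-Ba (1.68) and a probe each of RT1-Da (1.30) and RT1-Db1 (1.29). The 3 least variable were RT1-CE5 (0.24) and 2 probes of B2m (0.25). Within single slides Cd74 ranged over 0.81 log2 units on slide 5 to 3.59 on slide 4. The difference in spread between the classes is a description and was not tested.

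**Figure D2:**
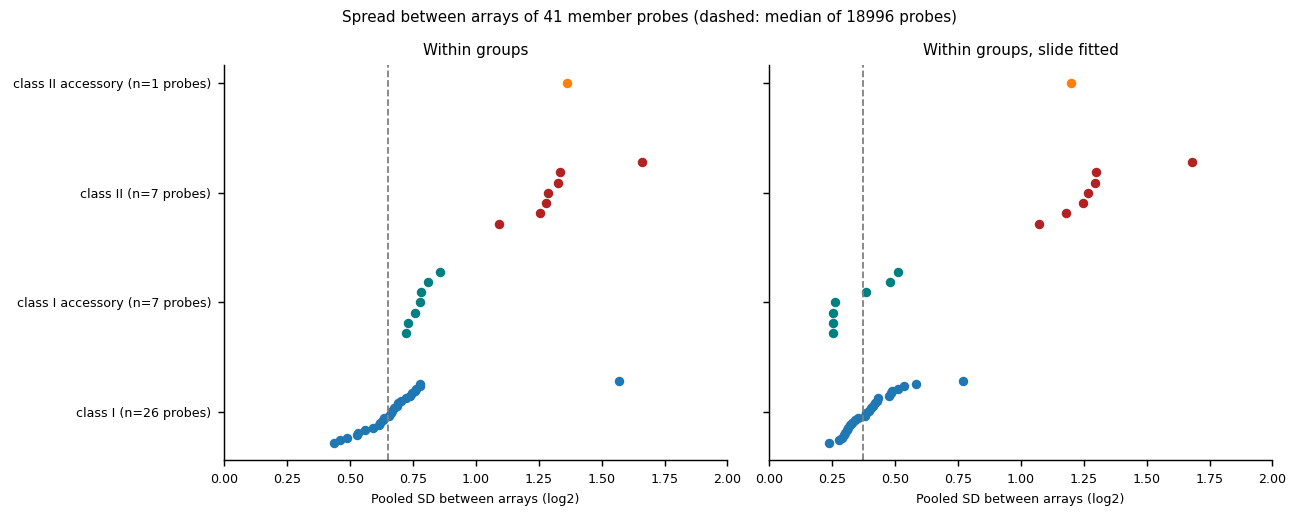
Pooled SD between arrays (log2, x axis) of the 41 tested member probes by class (y axis), within groups (left) and within groups with slide fitted (right); each point is 1 probe and the dashed line is the median of 18996 probes, 0.65 and 0.37. The 7 class II probes and Cd74 lie at 1.07 to 1.68 with slide fitted, above all class I and accessory probes. RT1-Ba, at 1.68, was not well above background on every array.

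Class II probes moved together from array to array, and class I probes did so in part. With levels centred on slide means (34 arrays, since slide 6 held 1), Pearson's r between class II probes was 0.546 to 0.968 over 21 pairs, with a median of 0.908, and r of class II probes with Cd74 was 0.748 to 0.977. Over the 325 pairs of class I probes r ran from -0.556 to 0.961 with a median of 0.348, and 71 pairs were below 0. Class I probes with Cd74 had a median of 0.396. Class I probes with accessory probes had a median of 0.246. These pairs share arrays and slides, and they are given as a description with no test. Class I pairs are also given by the letters their probes share. The 14 class I pairs whose probes share a run of at least 15 bases had a median r of 0.691 and the other 311 a median of 0.341. RT1-CE1 and RT1-M6-2 had r = 0.803, RT1-CE12 and RT1-M6-2 0.637, and RT1-CE1 and RT1-CE12 0.214, although the last pair shares the most bases (52 of 57). Whether such probes read 1 transcript or several was not tested. Probes of the same gene name also differed: the RT1-Db1 pair had r = 0.952 and the RT1-Da pair 0.912, but the RT1-Bb pair had 0.546 and the RT1-A2 pair 0.11. The first RT1-A2 probe followed a probe of RT1-Aw2 (0.918), RT1-S3 (0.878) and RT1-CE16 (0.835), and the second followed RT1-CE1 (0.645). Values of single class I names are therefore those of the probe, which near copies of the gene can share.

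**Figure D3:**
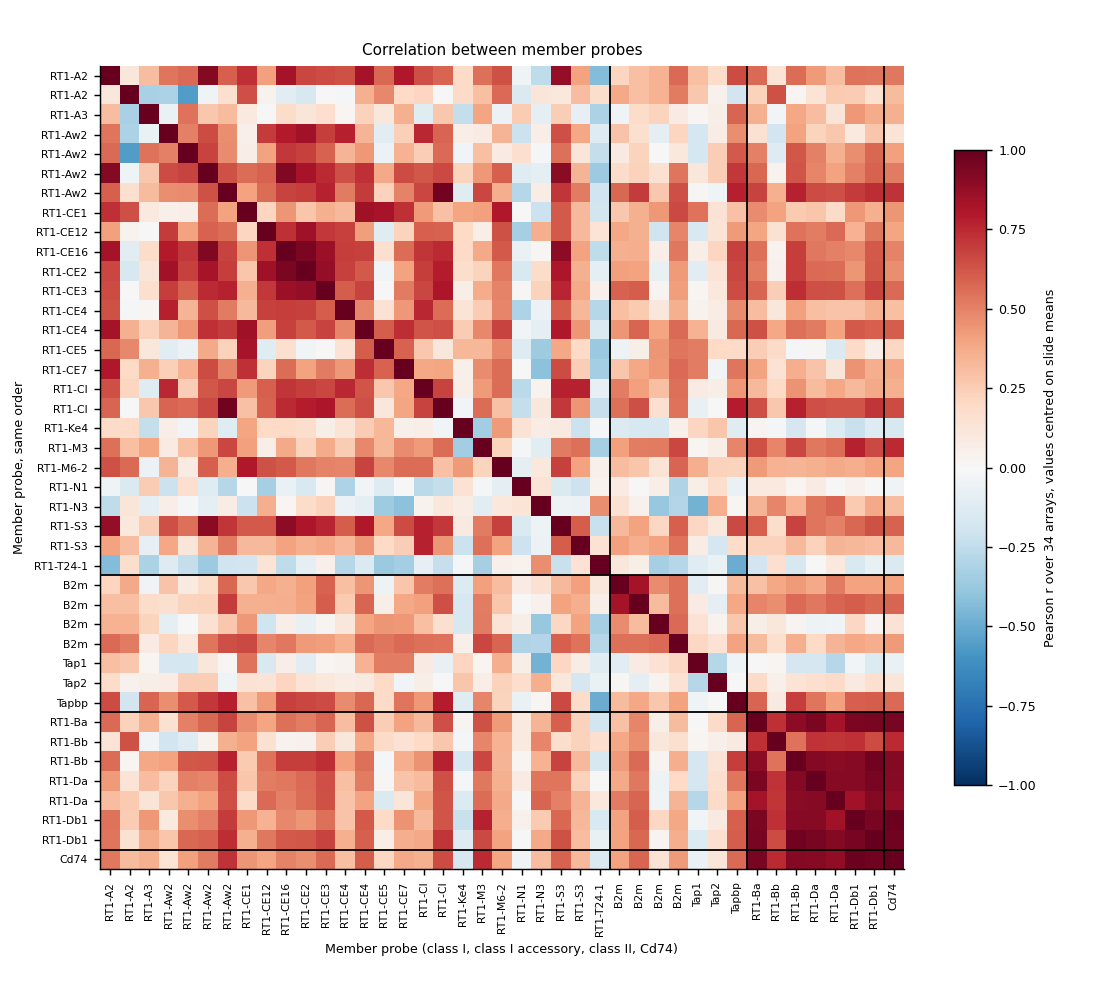
Pearson's r between the 41 tested member probes over 34 arrays after centring on slide means (colour scale from -1 to 1; both axes list the probes by class, with lines between the classes). The block of class II and Cd74 at the lower right is red throughout (0.546 to 0.977), and the class I block ranges from -0.556 to 0.961.

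Correlations across arrays were tested for 31 named pairs with Benjamini-Hochberg adjustment, and 1e-05 is the smallest p that 100000 permutations can give. Cd74 followed RT1-Db1 over the 35 arrays (r = 0.961, rho = 0.962, permutation p = 1e-05 and 1e-05, adjusted 1.55e-05 and 3.44e-05). Without the 2 arrays farthest in Cd74, r was 0.968, without slide 3 0.973, and on slide-centred levels 0.977. RT1-Da, RT1-Ba and RT1-Bb had r = 0.918, 0.919 and 0.92 with Cd74 (permutation p = 1e-05 each), and 0.886, 0.951 and 0.92 on slide-centred levels. RT1-DMa, the peptide exchange factor of class II, which is listed as Hla-dma on the array, had 0.94 (permutation p = 1e-05) and 0.932 centred. All 5 relations had r of 0.886 or more on slide-centred levels. B2m was less closely tied to Cd74: r was 0.606 over all arrays (permutation p = 1e-04) but 0.407 without slide 3 and 0.146 on slide-centred levels. These are values of the brightest B2m probe. The other B2m probes had 0.402, 0.422 and 0.585 with Cd74 on slide-centred levels. B2m is the partner of the class I heavy chains. It had r = 0.843 with RT1-A2 (0.347 centred), 0.892 with RT1-CE1 (0.434 centred) and 0.745 with RT1-CE2 (-0.076 centred), each with permutation p = 1e-05 before centring. Over the 22 pairs of B2m the median r was 0.80 before and 0.14 after centring. With Tap1 it was 0.268 (permutation p = 0.117), with Tap2 0.67 (0.0339 centred) and with Tapbp 0.846 (0.27 centred). In all, 27 of the 31 pairs passed at an adjusted p under 0.05, 23 without slide 3, 13 on slide-centred levels and 14 with quantile normalization.

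**Figure D4:**
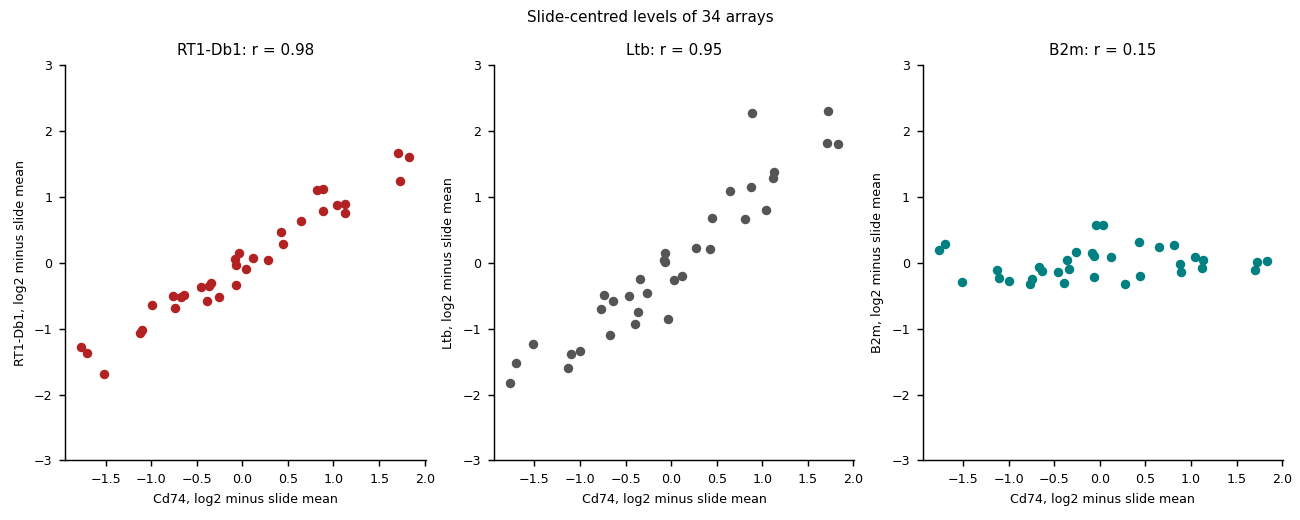
Slide-centred levels (log2 minus slide mean) of RT1-Db1, Ltb and B2m (y axes) against Cd74 (x axis); each point is 1 of 34 arrays. RT1-Db1 and Ltb rise with Cd74 along a line (r = 0.98 and 0.95), and the brightest B2m probe does not (r = 0.15). RT1-Db1 and Ltb had the highest r of the class II probes and of the 10 lymph node genes tested. The other B2m probes had 0.402 to 0.585.

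Marker lists of the cell types that a fat pad can hold were set beside Cd74 on the same slide-centred levels, as descriptions. Of 12 lymph node genes 10 passed the filter, with r from 0.173 (Cd52) to 0.946 (Ltb, lymphotoxin beta) and a median of 0.747. Ccl19 and Ccl21, chemokines of lymphoid tissue, had 0.851 and 0.733. Of 12 B cell markers 2 passed, Cd79b with 0.833 and Fcer2 with 0.804. Of the 12, 4 were matched to no probe. Of 12 T cell markers 5 passed, with a median of 0.722. Of 13 macrophage markers 11 passed, and their median was 0.122, with a range of -0.429 to 0.93 (Lyz2). Of 13 dendritic cell markers 3 passed, Cd83 with 0.942, Batf3 with 0.71 and Clec10a with -0.203. Natural killer cell markers had a median of 0.416 (2 of 9) and endothelial markers 0.112 (10 of 10). Mammary epithelial (11 of 14), adipocyte (9 of 10), fibroblast (6 of 6) and skeletal muscle markers (10 of 12) had medians of 0.366, -0.18, -0.199 and -0.0908. The list of interferon gamma signalling had 0.243 over 10 of 17 genes and that of type I interferon 0.0111 over 12 of 18. For B2m the lymph node median was 0.18. Of the pairs tested over all 35 arrays, Cd74 had r = 0.72 with Cd68 and 0.531 with Cd79b (permutation p = 1e-05 and 0.00112). With Cd3e it had 0.173 (permutation p = 0.32), which did not pass. On slide-centred levels these were 0.553, 0.833 and 0.546. By median, slide-centred Cd74 went with the lymph node, B cell, T cell and dendritic cell markers that passed the filter. Lyz2, of the macrophage list, was as high. The part of lymph node tissue in Cd74 levels was not tested. Over the 9891 probes above background on all 35 arrays, the gene names outside the members most like Cd74 in uncentred level were RGD1563818_predicted, Myo1g, Napsa, Cd83, Ifitm1, Lyz2, RT1-DMa, NP516919, Arhgdib and Mfge8, with r from 0.953 to 0.918 and between 0.884 and 0.953 after centring. Those most like B2m were Commd4, LOC679683, LOC679693, Akip1, Map4k4, Tnrc6b, Prkx, Oser1, MGC112775 and Ubn1, with r from 0.968 to 0.958 and only 0.679 to 0.832 after centring.

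The 7 comparisons ask whether MHC transcripts of the weanling gland differed after a BPA dose, between doses, or when a diet compound was added. Differences are log2 fold changes between group means of 5 and 5 arrays, from limma fitted to all 35 arrays, and a probe passed if its p, adjusted by Benjamini-Hochberg over 18996 probes, was under 0.05. No member passed in any comparison. In an F test over the 7 groups 0 of 41 members and 0% of all probes passed (lowest unadjusted p of a member 0.0808, with 0 members and 769 of 18996 probes under 0.05). The 95% intervals reached 0.60 to 1.87 to either side of a class I difference, 0.90 to 1.06 for the accessory probes, 1.32 to 1.98 for class II and 1.63 for Cd74, so that class II differences below 1.32 had intervals that include 0 even before adjustment. Class counts and medians are read beside those of all probes, since array scaling moves both. Beside each comparison stand the settings of the processing, 15 in all, that changed the sign of a class median, and the cell type lists of at least 5 tested genes of which at least 80% lay on one side. The part of those cell types in the MHC levels was not tested.

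**Figure D5:**
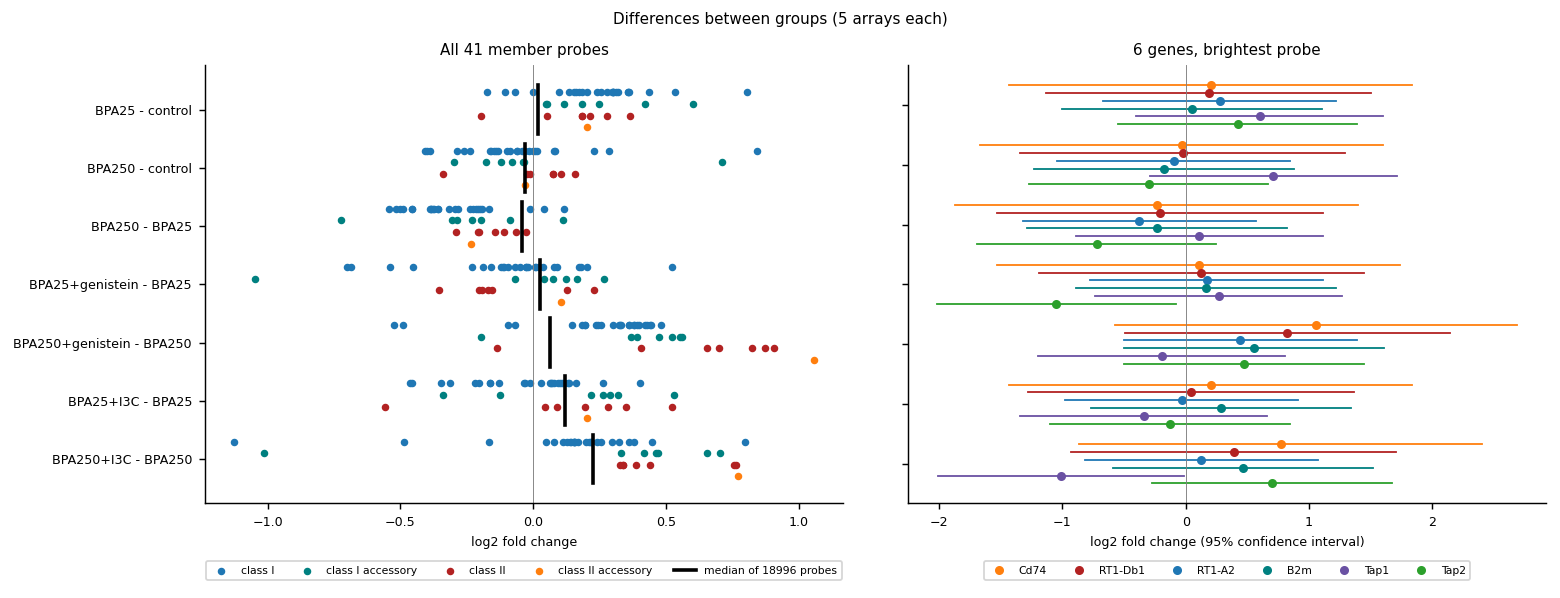
Differences in 7 comparisons (y axis) as log2 fold changes (x axis): left, the 41 tested member probes by class, with the median of 18996 probes as a black line; right, 6 genes with 95% confidence intervals from limma. The class II median and Cd74 lie highest with genistein at BPA250, and the intervals of Cd74 and RT1-Db1 include 0 in all 7 comparisons.

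After BPA25, most class I readings were somewhat higher than in control, by amounts below the spread between animals. Class I was higher for 23 of 26 probes (median difference 0.27), class II for 6 of 7 (0.19) and the accessory probes for 7 of 7 (0.18), beside 10079 of all 18996 (0.020). By limma 0 of 41 member probes passed, where 0% of all probes did (0 of 18996), and 0 of the members had an unadjusted p under 0.05, against 374 probes (1.97%). Groups did not overlap for 0 members and for 0.242% of all probes. The smallest p among the class I names were those of RT1-Ke4, the zinc transporter, 0.53 (SE 0.42), and the fourth RT1-Aw2 probe, 0.44 (SE 0.37). Among class II they were RT1-Db1, 0.37 (SE 0.78), and RT1-Ba, 0.28 (SE 0.97). Cd74 differed by 0.20 (SE 0.80, 95% interval -1.43 to 1.84, unadjusted p = 0.802, limma adjusted p = 1). B2m, Tap1, Tap2 and Tapbp differed by 0.053, 0.60, 0.42 and 0.050. Over 15 other settings the class I median changed sign in 1, with normexp (-0.077); with scan day as a block it was 0.10. In those settings the class II median did so in 2, with slide as a fixed block (-0.072) and scan day as a block (-0.14). In the same comparison 9 of 10 endothelial markers (median 0.34) read higher, and 9 of 11 macrophage markers (median -0.23) read lower.

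After BPA250, no difference of an MHC gene from control was detected. Readings of class I were higher for 7 of 26 probes (median difference -0.073), class II for 4 of 7 (0.075) and the accessory probes for 1 of 7 (-0.080), beside 8022 of all 18996 (-0.031). Of 41 member probes 0 passed by limma, where 0% of all probes did (0 of 18996), and 0 of the members had an unadjusted p under 0.05, against 183 probes (0.963%). Groups were apart for 0 members and for 0.3% of all probes. RT1-S3 (second probe) and RT1-T24-1 had the smallest p of class I, -0.40 (SE 0.32) and -0.39 (SE 0.34). The 2 RT1-Bb probes had the smallest p of class II and opposite signs, -0.34 (SE 0.76) and 0.16 (SE 0.74). The probe at -0.34 was not well above background on replicates 4 and 5 of BPA250, whose readings are bounds. Cd74 differed by -0.033 (SE 0.80), Tap1 by 0.71 (SE 0.49), B2m by -0.18, Tap2 by -0.30 and Tapbp by -0.036. Under the 15 other settings the class I median changed sign in 3, with the authors' deposited table (0.0066), scan day as a block (0.090) and array weights (0.0032). Among them the class II median did so in 2, with slide as a fixed block (-0.17) and slide as a random block (-0.14); with scan day as a block it was 0.16. Of the cell type lists, 5 of 5 T cell markers (median -0.79), 10 of 11 macrophage markers (median -0.11), 8 of 9 adipocyte markers (median -0.087), 10 of 10 skeletal muscle markers (median -2.81, 6 at an unadjusted p under 0.05) and 6 of 6 fibroblast markers (median -0.28) read lower.

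Between the doses, class I read lower at BPA250 than at BPA25 in nearly all probes, none of them passing. Class I was higher for 2 of 26 probes (median difference -0.34), class II for 0 of 7 (-0.14) and the accessory probes for 1 of 7 (-0.23), beside 8219 of all 18996 (-0.041). By limma 0 of 41 member probes passed, where 0% of all probes did (0 of 18996), and 0 of the members had an unadjusted p under 0.05, against 317 probes (1.67%). Groups did not overlap for 0 members and for 0.205% of all probes. Over 15 other settings the class I median changed sign in 0 (with scan day as a block it was -0.042). In those settings the class II median did so in 2, with scan day as a block (0.30) and slide 3 left out (0.011). RT1-CE12 and the second RT1-CE4 probe had the smallest p of class I, -0.50 (SE 0.34) and -0.38 (SE 0.31). RT1-CE12 read 4.36, 3.06, 4.78, 4.16 and 4.12 in BPA25 and 3.86, 2.63, 3.65, 4.04 and 3.81 in BPA250. Replicate 2, on slide 3, was the lowest array of both groups, and the groups overlapped. RT1-Db1 had -0.29 (SE 0.78) and -0.21 (SE 0.65) for its 2 probes, Cd74 -0.24 (SE 0.80) and Tap2 -0.72 (SE 0.48). Tap1, B2m and Tapbp had 0.11, -0.23 and -0.086. With scan day as a block Cd74 was 0.37, RT1-Db1 0.30 and 0.25, B2m 0.13 and Tapbp 0.25, all opposite in sign. In the same comparison 5 of 5 T cell markers (median -0.53), 8 of 10 lymph node markers (median -0.26), 9 of 10 endothelial markers (median -0.24, 1 at an unadjusted p under 0.05), 8 of 9 adipocyte markers (median -0.25), 10 of 10 skeletal muscle markers (median -2.75, 6 at an unadjusted p under 0.05) and 5 of 6 fibroblast markers (median -0.20) read lower. Class I pathway genes that are no members were lower for 11 of 12 (median -0.31). The first 3 comparisons share arrays, so their values are not independent.

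With genistein at BPA25, no difference of an MHC gene from BPA25 alone was detected. Tap2 and RT1-N3 were the 2 of 41 members (4.88%) with an unadjusted p under 0.05, a share near that of all probes (4.8%). Readings of class I were higher for 10 of 26 probes (median difference -0.039), class II for 2 of 7 (-0.17) and the accessory probes for 5 of 7 (0.076), beside 10071 of all 18996 (0.027). Of 41 member probes 0 passed by limma, where 0.00526% of all probes did (1 of 18996), and 2 of the members had an unadjusted p under 0.05, against 911 probes (4.8%). Groups were apart for 0 members and for 0.29% of all probes. The probe that passed was Myoz2, a muscle gene. Tap2 read 1.58, -0.034, 1.60, 1.30 and 1.49 in BPA25 and -0.58, -0.044, -0.059, 1.14 and 0.22 in BPA25+genistein. The exceptions were replicate 4 of BPA25+genistein, which was high, and the slide 3 array of BPA25, which was low, and the groups overlapped. Its difference was -1.05 (SE 0.48, 95% interval -2.02 to -0.077, unadjusted p = 0.0352, limma adjusted p = 0.994). RT1-N3, a class Ib name, read -0.67, -0.73, -0.74, -1.01 and -0.29 in BPA25 and -1.91, -0.66, -1.02, -2.11 and -1.15 in BPA25+genistein. The low arrays were replicates 1 and 4 of the genistein group, on which the probe was not well above background. Those readings are bounds, so that the probe was measured on 3 of 5 arrays there and on 5 of 5 in BPA25, and 35.6 and 37.4% of all probes were well above background on these 2 arrays, against 39.1 to 94.7% in BPA25. With the readings as scanned, the difference was -0.68 (SE 0.29, 95% interval -1.28 to -0.086, unadjusted p = 0.0263, limma adjusted p = 0.955). RT1-Ke4 had -0.70 (SE 0.42). The class II probes of smallest p were RT1-Da, -0.35 (SE 0.76), and RT1-Bb, 0.23 (SE 0.74). Cd74 had 0.10 (SE 0.80), B2m 0.17, Tap1 0.27 and Tapbp 0.13. Under the 15 other settings the class I median changed sign in 6, with quantile normalization (0.030), normexp (0.21), the authors' deposited table (0.060), slide as a fixed block (0.11), slide as a random block (0.025) and scan day as a block (0.28). Among them the class II median did so in 6, with quantile normalization (0.088), normexp (0.17), the authors' deposited table (0.17), the stricter filter (0.13), slide as a fixed block (0.036) and scan day as a block (0.37). Of the cell type lists, 9 of 11 macrophage markers (median 0.12) read higher, and 9 of 9 adipocyte markers (median -0.24) and 10 of 10 skeletal muscle markers (median -4.27, 10 at an unadjusted p under 0.05) read lower.

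With genistein at BPA250, Cd74 and the median of class II had their largest positive differences of the 7 comparisons, with intervals of the single genes that include 0. The second RT1-Bb probe had -0.14 (SE 0.76) with the readings as scanned. It was not well above background on replicates 4 and 5 of BPA250 and replicates 1, 2 and 4 of BPA250+genistein. Those readings are bounds. RT1-Da had 0.66 (SE 0.79), below its difference with I3C at the same dose, 0.76 (SE 0.79). Class I was higher for 22 of 26 probes (median difference 0.33), class II for 6 of 7 (0.70) and the accessory probes for 6 of 7 (0.47), beside 10932 of all 18996 (0.065). By limma 0 of 41 member probes passed, where 0% of all probes did (0 of 18996), and 0 of the members had an unadjusted p under 0.05, against 791 probes (4.16%). Groups did not overlap for 0 members and for 0.437% of all probes. Cd74 differed by 1.06 (SE 0.80, 95% interval -0.57 to 2.69, unadjusted p = 0.196, limma adjusted p = 1). RT1-Bb had 0.91 (SE 0.74) and RT1-Db1 0.82 (SE 0.65), the smallest p of class II. Among class I, RT1-S3 (second probe) had 0.44 (SE 0.32) and RT1-M3 0.48 (SE 0.36). B2m had 0.55, Tapbp 0.52, Tap2 0.47 and Tap1 -0.20. Over 15 other settings the class I median changed sign in 1, with slide 3 left out (-0.011); with scan day as a block it was 0.33. In those settings the class II median did so in 0 (with scan day as a block it was 0.70). In the same comparison 5 of 5 T cell markers (median 1.49, 1 at an unadjusted p under 0.05), 9 of 11 macrophage markers (median 0.16), 10 of 10 lymph node markers (median 1.08) and 5 of 6 fibroblast markers (median 0.43) read higher, and 9 of 11 mammary epithelial markers (median -0.65, 1 at an unadjusted p under 0.05) and 9 of 10 skeletal muscle markers (median -1.52) read lower. B cell markers, 2 in number, were both higher (median 1.27). The mean level of the 10 lymph node genes was -0.16 to 1.85 on the BPA250 arrays and 0.88 to 3.06 on the BPA250+genistein arrays. That of the 5 T cell markers tested, of 12 listed, was -1.82 to -0.046 against 0.022 to 1.52. Over all groups these markers were well above background on 20 (Cd3e) to 34 (Cd3d) arrays, so the means can hold readings that are bounds. The gap between the ranges was not tested and is not set against that of other gene sets. With array weights in the fit, which gave slide 3 weights of 0.0981 to 0.159 against 0.328 to 3.25 elsewhere, 1 member passed: RT1-Ke4 (Slc39a7), at -0.98 (SE 0.26, limma adjusted p = 0.0467). It read 1.52, -0.071, 1.84, 1.88 and 2.17 in BPA250 and 1.62, 0.27, 0.49, 1.83 and 0.68 in BPA250+genistein, so that the groups overlapped. Without weights its difference was -0.49 (SE 0.42). Under the same weights 254 of all probes passed.

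With I3C at BPA25, the medians of class I and class II lay near that of all probes. Readings of class I were higher for 14 of 26 probes (median difference 0.045), class II for 6 of 7 (0.20) and the accessory probes for 5 of 7 (0.26), beside 12165 of all 18996 (0.12). Of 41 member probes 0 passed by limma, where 0.0105% of all probes did (2 of 18996), and 0 of the members had an unadjusted p under 0.05, against 818 probes (4.31%). Groups were apart for 0 members and for 0.716% of all probes. The 2 probes that passed were Myoz2 and Tnni1, both muscle genes. The second RT1-CE4 probe had -0.46 (SE 0.31) and RT1-M3 0.40 (SE 0.36). The 2 RT1-Bb probes had -0.56 (SE 0.76) and 0.52 (SE 0.74), opposite in sign. The probe at -0.56 was not well above background on replicate 4 of BPA25 and replicates 2 and 4 of BPA25+I3C, whose readings are bounds. Cd74 had 0.20 (SE 0.80), B2m 0.29, Tap1 -0.34, Tap2 -0.13 and Tapbp 0.26. Under the 15 other settings the class I median changed sign in 8, with quantile normalization (-0.050), the percentile over probes detected on all arrays (-0.11), the authors' deposited table (-0.056), no filter (-0.011), slide as a fixed block (-0.030), slide as a random block (-0.063), slide 3 left out (-0.31) and array weights (-0.22); with scan day as a block it was 0.18. Among them the class II median did so in 1, with slide 3 left out (-0.046); with scan day as a block it was 0.43. Of the cell type lists, 11 of 11 macrophage markers (median 0.41) and 5 of 6 fibroblast markers (median 0.35) read higher, and 5 of 5 T cell markers (median -0.50), 9 of 11 mammary epithelial markers (median -1.26, 5 at an unadjusted p under 0.05) and 10 of 10 skeletal muscle markers (median -3.81, 10 at an unadjusted p under 0.05, 1 passing) read lower.

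With I3C at BPA250, all class II probes, Cd74 and most class I probes read higher, as did most probes on the array under this scaling, and Tap1 read lower, none of them passing. Class I was higher for 23 of 26 probes (median difference 0.16), class II for 7 of 7 (0.39) and the accessory probes for 6 of 7 (0.46), beside 13084 of all 18996 (0.23). By limma 0 of 41 member probes passed, where 0% of all probes did (0 of 18996), and 1 of the members had an unadjusted p under 0.05, against 792 probes (4.17%). Groups did not overlap for 0 members and for 1.09% of all probes. Tap1 read 0.51, -1.21, 1.09, -0.43 and 0.25 in BPA250 and -1.11, -1.02, -0.59, -0.75 and -1.40 in BPA250+I3C. The I3C arrays were all at -0.59 or lower, but replicate 2 of BPA250, on slide 3, was lower than 4 of them, so that the groups overlapped. The difference was -1.01 (SE 0.49, 95% interval -2.01 to -0.012, unadjusted p = 0.0475, limma adjusted p = 0.776). The second RT1-A2 probe had 0.80 (SE 0.45) and RT1-N3 0.45 (SE 0.29). RT1-Bb (second probe) and RT1-Da had 0.77 (SE 0.76) and 0.76 (SE 0.79), and Cd74 0.77 (SE 0.80, 95% interval -0.86 to 2.40, unadjusted p = 0.344, limma adjusted p = 0.777). The RT1-Bb probe was not well above background on replicates 4 and 5 of BPA250. B2m had 0.47, Tap2 0.70 and Tapbp 0.33. The direction depended on the scaling: with the percentile over probes above background on all arrays the median of all probes was -0.17. Over 15 other settings the class I median changed sign in 5, with quantile normalization (-0.064), the percentile over probes detected on all arrays (-0.24), the authors' deposited table (-0.047), slide 3 left out (-0.13) and array weights (-0.13); with scan day as a block it was 0.052. In those settings the class II median did so in 1, with the percentile over probes detected on all arrays (-0.011); with scan day as a block it was 0.25. In the same comparison 5 of 5 T cell markers (median 0.74), 10 of 11 macrophage markers (median 0.29), 8 of 10 lymph node markers (median 0.72, 1 at an unadjusted p under 0.05), 8 of 9 adipocyte markers (median 0.42, 1 at an unadjusted p under 0.05) and 6 of 6 fibroblast markers (median 0.40) read higher, and 10 of 11 mammary epithelial markers (median -0.74, 2 at an unadjusted p under 0.05) and 10 of 10 skeletal muscle markers (median -2.04, 1 at an unadjusted p under 0.05) read lower.

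The difference between the genistein effects at both doses was tested as an interaction, as was that of I3C. By limma 0 of 41 members and 0% of all probes passed in either, with 1 and 0 members and 238 and 594 of 18996 probes at an unadjusted p under 0.05. The genistein effect was higher at BPA250 than at BPA25 for 24 of 26 class I probes (median 0.34) and 7 of 7 class II probes (0.76), beside 10535 of all 18996 probes (0.047). Tap2 had the largest, 1.52 (SE 0.68, 95% interval 0.15 to 2.90, unadjusted p = 0.0308, limma adjusted p = 1). Its difference was -1.05 at BPA25 and 0.47 at BPA250. Cd74 had 0.95 (SE 1.14). The class I probes of smallest p were RT1-CE12, 0.69 (SE 0.49), and RT1-N3, 0.59 (SE 0.42), and those of class II were the 2 RT1-Db1 probes, 1.07 (SE 1.11) and 0.70 (SE 0.92). The I3C effect was higher at BPA250 for 20 of 26 class I (0.14) and 6 of 7 class II probes (0.25), beside 11282 of all probes (0.10). Its probes of smallest p were the second of RT1-A2, 1.02 (SE 0.64), and RT1-N3, 0.65 (SE 0.42), in class I, and the second of RT1-Bb, 1.32 (SE 1.07), and RT1-Db1, 0.35 (SE 0.92), in class II.

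Other genes of both pathways, from lists that name no member, did not pass either. Of 13 class I pathway genes (immunoproteasome subunits, chaperones of loading, Erap1, Nlrc5, Irf1 and Irf2) 12 were tested and 0 passed in any of the 7 comparisons; of 13 class II pathway genes (RFX and NF-Y factors and cathepsins among them) 9 were tested and 0 passed. With genistein at BPA250, class I pathway genes were 9 of 12 higher, median 0.034, and class II pathway genes 4 of 9 higher, median -0.042. With I3C at BPA250 they were 10 of 12 higher, median 0.52, and 7 of 9 higher, median 0.33. Irf1, a factor that binds class I promoters, had the smallest p of its list between the BPA doses, at -0.68 (SE 0.32, unadjusted p = 0.0406). Of 17 interferon gamma genes 10 were tested, and Cxcl10, a chemokine induced by interferon, had the smallest p after BPA250, -0.83 (SE 0.45, unadjusted p = 0.0737), and with I3C at BPA250, 1.01 (SE 0.45, unadjusted p = 0.0317). Of 18 type I interferon genes 12 were tested, and 0 passed in any comparison. With I3C at BPA250, 7 of the 12 were higher and 5 lower (median 0.27), 3 of them at an unadjusted p under 0.05, and after BPA250 3 were higher and 9 lower (median -0.33), 2 of them so. Their smallest p were those of Rsad2, an antiviral effector, with 1.97 with I3C at BPA250 (SE 0.49, unadjusted p = 0.000321), and Oas1a, with -0.76 after BPA250 (SE 0.27, unadjusted p = 0.00835). On slide-centred levels the type I interferon list had a median r of 0.0824 with RT1-A2 and 0.139 with B2m, and the interferon gamma list 0.123 and 0.232, all given as descriptions over 34 arrays.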

How the data were processed

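The deposited files hold 1 array each, spot by spot, as written by Agilent Feature Extraction 9.5.3.1, per the submitters' processing notes. Per the file headers, the processed signal is an intensity with local background subtracted and spatial and multiplicative detrending, and the mean and background signals are uncorrected intensities. A further table deposited by the authors holds log2 values, whose normalization is not given in the sources used here. No deposited per-sample column was left unmapped.

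The log2 of each array's 75th percentile was subtracted from the log2 of its processed signals. Spots with outlier flags were set to missing, control spots (1639) were left out and replicate spots were averaged. A probe was tested if well above background on at least 4 of 5 arrays of a group, with at most 5 missing values, which left 18996 probes. Group means over all 35 arrays were fitted with limma 3.58.1 (R 4.3.3; package data.table, version 1.17.8), without filling missing values. Differences, interactions and an F test were adjusted by Benjamini-Hochberg over all tested probes. The fit was checked on simulated arrays drawn independently, with no slide effect. The real arrays had a correlation within slides of 0.575, which that check does not cover. The members, the gene lists and the tests were chosen with earlier results of these data known. The values of 1 named pair and 1 marker gene are not reported here; they stay in the adjustment and the counts.

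Named members: Cd74, B2m, Ciita, Tap1, Tap2 and Tapbp always; levels of RT1 names above background on all arrays; per comparison the 2 class I and 2 class II probes of smallest unadjusted p, as not passing; the 3 highest and 3 lowest SDs, and the 10 names most like Cd74 and B2m. Of a name with several probes, the probe with the highest mean signal was used unless another is named. RT1-N1, RT1-A3 and the dim probes were described after their values were seen. Current symbols came from RefSeq (GRCr8) for 20035 probes, and promoters from the same source. The offspring came from different litters per the series' design, and 5 animals a group limit the precision. Alternatives were other scalings, background correction (normexp, offset 50), filters, the authors' table, slide, scan day or replicate number as a block, array weights, slide 3 left out, and each array left out in turn; leaving out RT1-Ke4 was added after seeing the data.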

Additional observations from a re-analysis of the deposited data

Results flagged for a closer look

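Among 12 member genes in 7 groups, 84 sets of 5 arrays, 10 arrays lay far from the other 4 by Dixon's test (a gap of over 0.71 of the group's range). All 10 were the lowest of their group, and 8 of them lay on slide 3. Chance gives about 1 in 20 sets where sets are independent. These sets are genes read on the same arrays, so the 10 are not set against that rate.

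On slide 3, replicate 2 of BPA250 was apart for RT1-A2, at 2.05 where the next array was 3.58, for RT1-Ke4 (-0.071 against 1.52), for Tapbp (-1.37 against 0.48) and for RT1-Bb (0.36 against 2.29). Replicate 2 of control was apart for RT1-Ke4 (0.060 against 1.57), for B2m (5.72 against 7.94) and for Tapbp (-1.31 against 0.31). Replicate 2 of BPA25 was apart for Tap2 (-0.034 against 1.30).

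Outside slide 3, replicate 3 of BPA250+I3C, on slide 4, was apart for B2m (7.20 against 8.01), and replicate 4 of BPA250+genistein, on slide 8, for RT1-N3 (-2.17, not well above background, against -0.79). The differences between groups without slide 3 are given with the processing settings.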

How the results depend on the processing

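No member passed under any planned setting except array weights, where 1 passed with genistein at BPA250 and 1 in the F test, and leaving out any 1 array left 0 members passing in every comparison. Of 210 class medians under the other planned settings 38 changed sign, and of 140 with 1 array left out 32 did. The shifts were below the SD of the class median between arrays (0.56 for class I, 1.34 for class II), which is wider than each of the medians reported and so is no sign of stability. Class II with genistein at BPA250 and class I between the BPA doses changed sign in 0 of these settings. With 1 array left out these medians still ran from 0.24 to 1.11 and from -0.67 to -0.039. Class I medians without RT1-Ke4, a setting chosen after seeing the data, were -0.32 to 0.33.

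The replicate number was also fitted as a replicate block. Over 105 same-numbered pairs r ran from -0.376 to 0.942 (median 0.203, 68 above 0.1), against a median of -0.0211 for different numbers. Of 35 arrays 23 correlated best with their own number, so same-numbered arrays deviated together in part. Same-numbered arrays often shared a slide or scan day. The labels state no pairing, and the numbers were not taken to pair the animals. With the replicate block 0 members passed, and 4 probes passed for I3C at BPA25 and 1 in the F test.

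Counts over all probes, which were 0 except 1 for genistein at BPA25 and 2 for I3C at BPA25, moved by over 1.5 times as follows. With array weights, 158 passed for BPA25 against control, 971 passed for I3C at BPA25, 86 passed for genistein at BPA25, 47 passed for BPA250 against BPA25, 2 passed for BPA250 against control, 254 passed for genistein at BPA250, 477 passed for the I3C interaction, 1146 passed for the F test, 8 passed for the genistein interaction. With the percentile over probes detected on all arrays, 1 passed for I3C at BPA25, the F test and the genistein interaction, 0 passed for genistein at BPA25. With the authors' deposited table, 0 passed for I3C at BPA25 and genistein at BPA25, 1 passed for genistein at BPA250. With no filter, 0 passed for I3C at BPA25 and genistein at BPA25. With normexp, 0 passed for I3C at BPA25 and genistein at BPA25. With the compared groups alone, 1 passed for I3C at BPA25, 0 passed for genistein at BPA25. With outlier spots kept, 0 passed for I3C at BPA25 and genistein at BPA25. With quantile normalization, 1 passed for I3C at BPA25 and the F test. With scan day as a block, 8 passed for I3C at BPA25, 2 passed for genistein at BPA25, 10 passed for the F test. With slide as a fixed block, 0 passed for I3C at BPA25 and genistein at BPA25, 1 passed for the I3C interaction, 4 passed for the F test. With the stricter filter, 0 passed for I3C at BPA25 and genistein at BPA25. With slide 3 left out, 10 passed for I3C at BPA25, 26 passed for genistein at BPA25, 4 passed for BPA250 against BPA25, 31 passed for the F test. With slide as a random block, 2 passed for I3C at BPA250, 84 passed for genistein at BPA250, 3 passed for the I3C interaction, 160 passed for the F test. With 1 probe per gene name, 1 passed for the F test. Leaving out 1 array gave 0 to 26 for I3C at BPA25, 0 to 11 for genistein at BPA25, 0 to 1 for BPA250 against BPA25, 0 to 76 for the F test.

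Of 64 named differences, none of which passed, 28 changed sign in at least 1 of 9 settings; the adjusted p was 0.811 or more each time, and the cause was not tested. With array weights, B2m was -0.14 for BPA25 against control, Cd74 was -0.40 for genistein at BPA25, RT1-Bb (second probe) was 0.29 for I3C at BPA25, RT1-Bb was -0.19 for genistein at BPA25, Tap1 was -0.029 for BPA250 against BPA25, Tap1 was 0.074 for genistein at BPA250, Tap2 was -0.11 for genistein at BPA250, Tapbp was -0.15 for I3C at BPA25, Tapbp was -0.068 for genistein at BPA25, Tapbp was 0.012 for BPA250 against control. With normexp, B2m was -0.36 for BPA25 against control, Cd74 was -0.21 for BPA25 against control, RT1-Bb (second probe) was 0.0049 for BPA250 against control, RT1-Da (second probe) was 0.17 for genistein at BPA25. With slide 3 left out, B2m was -0.16 for BPA25 against control, Cd74 was -0.18 for I3C at BPA25, Cd74 was -0.29 for genistein at BPA25, Cd74 was 0.017 for BPA250 against control, RT1-Bb was -0.26 for genistein at BPA25, Tapbp was -0.16 for I3C at BPA25, Tapbp was -0.017 for genistein at BPA25, Tapbp was -0.054 for I3C at BPA250. With the authors' deposited table, B2m was -0.11 for I3C at BPA25, Cd74 was 0.012 for BPA250 against control, RT1-Da (second probe) was 0.26 for genistein at BPA25, Tapbp was 0.036 for BPA250 against control. With quantile normalization, B2m was -0.10 for I3C at BPA25, B2m was -0.032 for I3C at BPA250. With scan day as a block, B2m was 0.13 for BPA250 against BPA25, B2m was 0.17 for BPA250 against control, Cd74 was -0.094 for BPA25 against control, Cd74 was 0.37 for BPA250 against BPA25, Cd74 was 0.27 for BPA250 against control, RT1-Ba was -0.043 for BPA25 against control, RT1-Da (second probe) was 0.055 for genistein at BPA25, RT1-Db1 was 0.25 for BPA250 against BPA25, RT1-Db1 (second probe) was -0.077 for BPA25 against control, RT1-Db1 (second probe) was 0.30 for BPA250 against BPA25, Tapbp was -0.081 for BPA25 against control, Tapbp was 0.25 for BPA250 against BPA25, Tapbp was 0.17 for BPA250 against control. With the percentile over probes detected on all arrays, Cd74 was 0.013 for BPA250 against control, Tapbp was 0.0051 for BPA250 against BPA25, Tapbp was 0.0097 for BPA250 against control, Tapbp was -0.069 for I3C at BPA250. With slide as a fixed block, RT1-Bb was -0.043 for BPA250 against control, RT1-Db1 (second probe) was -0.014 for BPA25 against control, Tap1 was -0.13 for BPA250 against BPA25, Tapbp was -0.041 for BPA25 against control, Tapbp was 0.040 for BPA250 against BPA25. With slide as a random block, RT1-Bb was -0.017 for BPA250 against control, Tap1 was -0.089 for BPA250 against BPA25.

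Leaving out 1 array gave differences of both signs for these. In BPA25 against control they ran from -0.44 to 0.34 for B2m, -0.33 to 0.59 for Cd74, -0.10 to 0.67 for RT1-Ba, -0.077 to 0.71 for RT1-Db1 (second probe), -0.040 to 0.73 for Tap2, -0.33 to 0.47 for Tapbp. In genistein at BPA25 they ran from -0.12 to 0.63 for B2m, -0.50 to 0.51 for Cd74, -0.31 to 0.60 for RT1-Bb, -0.96 to 0.12 for RT1-Da (second probe), -0.17 to 0.52 for Tap1, -0.30 to 0.40 for Tapbp. In BPA250 against BPA25 they ran from -0.52 to 0.21 for B2m, -0.72 to 0.35 for Cd74, -0.59 to 0.12 for RT1-Db1, -0.64 to 0.20 for RT1-Db1 (second probe), -0.15 to 0.42 for Tap1, -0.51 to 0.30 for Tapbp. In BPA250 against control they ran from -0.67 to 0.26 for B2m, -0.57 to 0.55 for Cd74, -0.22 to 0.60 for RT1-Bb, -0.42 to 0.35 for Tapbp. In I3C at BPA25 they ran from -0.22 to 0.81 for Cd74, -1.09 to 0.018 for RT1-Bb (second probe), -0.43 to 0.12 for Tap2, -0.16 to 0.49 for Tapbp. In genistein at BPA250 they ran from -0.68 to 0.14 for Tap1. In I3C at BPA250 they ran from -0.054 to 0.45 for Tapbp.

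Correlations of B2m turned for some pairs. With slide 3 left out, r was -0.19 with Psmb8, -0.0958 with Tap1. With quantile normalization, r was 0.256 with Irf1, -0.148 with Psmb8, -0.0349 with RT1-Ke4. With slide-centred levels, r was 0.121 with Irf1, -0.382 with Psmb8, -0.101 with RT1-Aw2, -0.198 with RT1-CE12, -0.076 with RT1-CE2, -0.159 with RT1-Ke4. Pairs that passed numbered 27, and 14 with quantile normalization and 13 on slide-centred levels. The median SD between arrays was 0.67 for class I and 0.78 for class I accessory probes, and it was 0.43 and 0.39 without slide 3 and 0.39 and 0.26 with slide fitted.

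The limits are those of 5 arrays a group, of 4 arrays on a slide that stands apart, of a scaling whose choice moves the median of all probes (0.23 to -0.17 for I3C at BPA250), of probes that near copies can share, and of whole tissue, in which lymph node and muscle markers vary between arrays. Probes near background, among them Ciita and the DO pair, have only bounds.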

Other observations

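Some dim class I probes were well above background on all 4 arrays of slide 3 and read far higher there than elsewhere. Outside that slide they were so on 18 (RT1-A3), 9 (RT1-CE10), 5 (RT1-M2) and 7 (the second RT1-M6-2 probe) of 31 arrays. RT1-M2, a class Ib name, read -0.044, -0.52, -0.23 and -0.16 on the 4 arrays of slide 3, where its median over all arrays was -4.08. The second probe of RT1-M6-2 read 0.90, 1.21 and 1.26 on 3 of them, with a median of -3.79 over all arrays. RT1-DOb, a class II chain, read 0.11, -0.78, -0.28 and -0.10 there, with a median of -2.64. The well expressed class I probes read lower on that slide. Of these dim probes RT1-A3 passed the filter and enters the class I values; the others enter no comparison.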
